A study of Mus musculus with 54 samples.

Results

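The first day of differentiation in wildtype progenitors was described from the deposited comparison of wildtype samples at 0 h with wildtype samples at 24 h. The comparison covers 6 of the 54 samples of the series, 3 labelled replicates at each time. All 17452 genes of its table were taken, of 19263 genes listed in at least 1 of the 14 tables used here. In the series, RNA of H2K myogenic progenitors was sequenced for wildtype cells, for EMD -/y cells that lack emerin, and for EMD -/y cells given back wildtype emerin (+EMD) or a mutant form. Emerin is a protein of the inner nuclear membrane, and its loss causes Emery–Dreifuss muscular dystrophy.

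Both groups are the same wildtype line, with no emerin transgene. Day 0 cells were plated densely on gelatin and kept overnight in proliferative medium, which holds fetal bovine serum, chick embryo extract and γ-interferon. Day 1 cells were plated the same way and then spent 24 h in a medium with less serum, from horse, and without γ-interferon or chick embryo extract. H2K progenitors derive from mice that carry a heat-labile SV40 large T antigen driven by the H-2Kb promoter, which responds to γ-interferon. Large T antigen binds p53 and the retinoblastoma proteins and keeps the cells dividing. The CO2 level was lowered at the switch, and the study's methods and the labels give different temperatures for proliferation. Serum, γ-interferon, CO2, any change in temperature, and time in culture changed together between the groups and cannot be told apart. The labels number 3 replicates per group. They also speak of 2 biological replicates with 3 technical ones each, and do not say which of the numbered ones came from separate cultures. Values of 3 other comparisons stand beside the wildtype ones further on. They are EMD -/y cells at day 0 and day 1, +EMD cells at the same times, and wildtype cells at day 1 and after 48 h in the same medium. +EMD cells are EMD -/y cells that received wildtype emerin by lentivirus and were selected with puromycin.

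Myogenic progenitors are descendants of muscle stem cells that multiply while growth factors are present. On serum withdrawal they leave the cell cycle, the transcription factor MyoD turns on myogenin and then the genes of the contractile apparatus, and the cells later fuse into myotubes. Retinoblastoma protein and the cyclin-dependent kinase inhibitor p21 hold the cells out of the cycle during that program.

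The table gives 1 normalized read count per gene and group and no value per replicate. No spread between replicates could be given and no difference was tested, so the counts below describe sizes of change. The values summed to 17985748 at day 0 and 18463102 at day 1. The worth of 1 read could be read from the lowest values, and the 6 libraries had size factors between 0.953 and 1.05, which are relative depths. Were each column its own group's mean, a value of 10 would stand for about 30 reads over 3 libraries, with an exact Poisson 95% interval of 6.75 to 14.3. For a value of 1000 it would be 965 to 1036. The columns appear to be fitted and not such means, so these intervals only give the scale of counting error and are no error of a group value. The mean of the 2 columns is the plain mean over the libraries, but their ratio behaves as a fitted fold change that was pulled toward 1. That was read from the values, and how the provider computed the columns was not known. A gene with 1 read in 1 library is above 0 in both groups, for example at 0.157 and 0.185 for 157 genes whose 1 read came from the same library. Folds of genes with few reads are thus understated, and those of genes with uneven libraries may be too, which was not tested. In either group 0 genes are listed at 0.

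A gene was counted as higher or lower when log2((day 1 + 1)/(day 0 + 1)) was at least 1 in size and the higher of its 2 values was at least 10. Of 13432 genes that passed this minimum, 1677 (12.5%) were higher at day 1 and 1384 (10.3%) were lower. The other 10371 differed by less than 2-fold. The gene lists used below are counted over members that passed the minimum, and the number on each list is given beside them. Their counts of higher and lower members are to be read against these 12.5% and 10.3%. The median log2 change over the 13432 genes was -0.01. A change of at least 4-fold was seen for 580 higher and 356 lower genes, and one of at least 16-fold for 46 and 30. The higher genes held 4.61% of all normalized counts at day 0 and 14.7% at day 1. The lower genes held 11.6% and 3.77%. At the edge of the threshold, Tmem14a at 45.5 and 92.1 was just inside and Pacs2 at 3527 and 7054 just outside. Among falls, Adora2a at 39.2 and 19.1 was just inside and Aebp1 at 2441 and 1220 just outside.

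**Figure D1:**
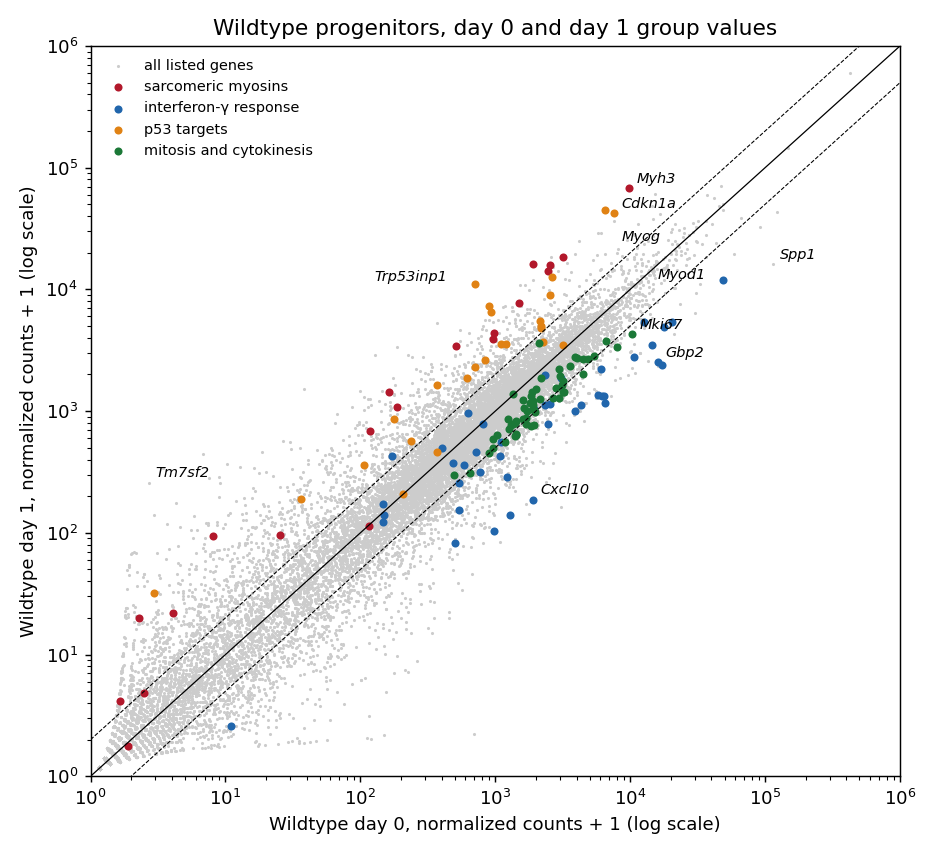
Each point is a gene, with its normalized count + 1 at day 0 on the horizontal log axis and at day 1 on the vertical log axis; the solid line marks equal values and the dashed lines a 2-fold difference. Sarcomeric myosins and p53 targets lie mostly above the upper dashed line, interferon-γ response genes mostly below the lower one, and mitosis genes mostly between the solid line and just past the lower dashed line, with Spp1 (113791 at day 0, 16156 at day 1) far to the right.

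The cells carried the transcripts of their label. Myod1, which commits cells to muscle, was at 13658 and 17183, and Des, the muscle intermediate filament, at 14870 and 27485. Myf5 was at 211 and 226 and Pax7, the stem cell factor, at 361 and 137. Some genes used as markers of other cell types were absent or low, and others were above Myf5 and Pax7 in both groups. Of the 10 macrophage and leukocyte markers 6 were listed, Ptprc, Adgre1, C1qa and Tyrobp were not, and the list summed to 92.2 and 174. Of the 4 that passed the minimum, Itgam rose from 3.42 to 77.0 and Cd68 from 14.7 to 30.9, Csf1r fell from 10.9 to 2.39, and Cd14 was at 61.6 and 61.0. Endothelial markers summed to 109 and 104 over 9 of 10 genes, led by Eng at 67.4 and 40.0, with Pecam1 at 8.17 and 8.85. Of the 4 that passed the minimum, Tek rose from 7.43 to 29.8, the low Erg also rose, and Kdr fell from 15.9 to 5.94. Adiponectin (Adipoq), Plin1 and Cidec were not listed, Pparg fell from 48.2 to 3.31, and Plin4 rose from 12.7 to 191. The 6 of 11 adipocyte markers that were listed summed to 2250 and 1432, led by Lpl at 1117 and 666, with Cebpa at 1067 and 569. Of the 13 fibroblast markers 11 were listed, Tcf21 and Lum were not, Thy1 was at 9.99 and 1.14, and Pdgfra at 35.7 and 24.9. That list summed to 8321 and 4634. Ly6a, which interferon also induces, led it at day 0 and fell from 4223 to 1001, with 394 to 1001 for the same day 1 libraries over 7 tables, and Pdgfrb led it at day 1, at 2416 and 2782. Ly6c1 fell from 684 to 89.2, with 46.3 to 89.2 for the same day 1 libraries over 7 tables. The low Pi16 also fell, and the low Dpt rose. In the Schwann and neural list 9 of 10 were listed, Sox10 was not, and the list summed to 1766 and 4598. Tubb3 led it at day 0 and fell from 990 to 173, and Erbb3, also a gene of the synapse list, led it at day 1 and rose from 637 to 4404. Nefl and Ngfr fell too. The smooth muscle sum of 54733 and 94263 was led by Acta2 and Des, which myoblasts make too, with Myh11 at 2.93 and 6.64. Of the 9 smooth muscle markers that passed, 4 were higher and 0 lower. Notch3 rose from 1507 to 4719, Mylk from 31.8 to 76.9, Cnn1 from 16.1 to 34.3 and Rgs5 from 2.24 to 15.5. In the cardiac list 6 of 10 were listed, Nkx2-5 was not, Nppa was at 0.609 and 1.08, Myh6 rose from 3.06 to 20.9, and Gata4 led a sum of 112 and 160. The part of other cell types in the results below was not tested beyond these values.

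Among the myogenic regulatory factors, myogenin (Myog) was at 7645 at day 0 and 36642 at day 1, a 4.79-fold rise. Per kilobase of transcript, the level of Myog went from 5036 to 24138 and that of Myod1 from 7367 to 9268, so Myog was the lower of the pair at day 0 and the higher at day 1. Myod1 and Myf5 differed by less than 2-fold, and Myf6 was at 6.90 and 6.76, under the minimum. More Myog RNA in the culture can come from more cells that make it or from more RNA per cell, which bulk RNA cannot tell apart. The partners of the MyoD family followed in part. Mef2a rose from 5326 to 17574, Mef2c from 1427 to 3930, and Mef2d from 2987 to 6123, the last of these 2.05-fold and close to the threshold. Smyd1, a methyltransferase needed for sarcomere assembly, rose from 748 to 3971. Pax7 and the low Eya2 fell. In all, 16 of 17 genes listed for the Mef2 and Pax families and their partners passed the minimum, 5 were higher and 2 lower, with a median of 0.15. The share that was lower was close to the 10.3% of all genes above the minimum.

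Genes listed as restraining MyoD moved both ways, 5 higher and 5 lower among the 16 of 17 that passed, with a median of 0.05. Id1 fell from 1985 to 644, Id2 from 1854 to 382, and Id3 from 4623 to 1175. Id proteins bind the E proteins that MyoD needs as partners. Twist2 fell from 244 to 75.8, and Msx1 fell as well. Heyl rose from 241 to 1710. Hes6, counted on this list but also known to promote muscle differentiation, rose from 973 to 3922, and Zeb1, Bhlhe40 and Bhlhe41 rose between 2.25-fold and 2.60-fold. Tcf3, which encodes E proteins, was at 3007 and 1657.

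Fusion genes were already present at day 0. Myomaker (Mymk), a membrane protein required for myoblast fusion, was at 3411 and rose to 16453. Myomixer (Mymx), the micropeptide that works with it, rose from 97.0 to 784. M-cadherin (Cdh15) rose from 3285 to 12252, Ncam1 from 6038 to 14787, and Cav3 from 507 to 1818. Of 26 genes listed for fusion and adhesion, 23 passed the minimum, 10 were higher and 0 lower, with a median log2 change of 0.82. Vcam1 was at 3148 and 1682 and its integrin partner Itga4 at 2001 and 1145, both short of the threshold.

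Sarcomere genes gave the highest medians of the lists examined. Among 21 genes listed for sarcomeric myosins, 17 passed the minimum and 16 were higher, with a median log2 change of 2.54. The list also holds myosin-binding proteins and myosin light chain kinases. Embryonic myosin heavy chain (Myh3) went from 9832 to 67484, the largest gain in normalized counts of any named gene. Per kilobase at day 1, Myh3 stood at 11138, the perinatal Myh8 at 1217, Myh1 at 723, the slow Myh7 at 238, Myh2 at 113, and Myh4 at 15.4. The same genes were at 1623, 240, 160, 26.7, 19.2 and 3.96 per kilobase at day 0, so their order was the same on both days. These heavy chains share long near-identical stretches, and the split of reads between them is uncertain. Light chains rose alongside. Mylpf went from 3158 to 18282, Myl4 from 2547 to 15711, and Myl1 from 2467 to 14031. The kinase gene Mylk2 on this list was at 114 and 112.

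The thin filament list gave 17 higher genes and 1 lower among the 21 of 23 that passed, with a median of 2.07. Skeletal actin (Acta1) went from 15204 to 60459 and cardiac actin (Actc1), the embryonic form in muscle, from 6117 to 29257. Troponins rose in slow, cardiac and fast forms, except the cardiac Tnni3, at 0.181 and 0.155 and under the minimum. Tnnt2 went from 3915 to 19504, the fast Tnnt3 from 2909 to 14204, and the slow Tnnt1 from 1261 to 5302. Nebulin (Neb) rose from 4151 to 25016. Tropomyosins split, with Tpm2 rising from 14760 to 37907, Tpm1 at 24732 and 26684, and the largely cytoskeletal Tpm3 at 13819 and 7360. In the Z-disc and titin list 25 of 26 passed, 21 were higher, 0 lower, and the median was 2.22. Titin (Ttn) rose from 5767 to 28829 and α-actinin-2 (Actn2) from 1320 to 7142. Ankrd2, a titin-binding stretch-responsive protein, showed the steepest rise of that list, from 186 to 3352. The chaperone Unc45b, which folds myosin, rose from 240 to 2790. Desmin, expressed before differentiation, stayed under 2-fold.

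**Figure D2:**
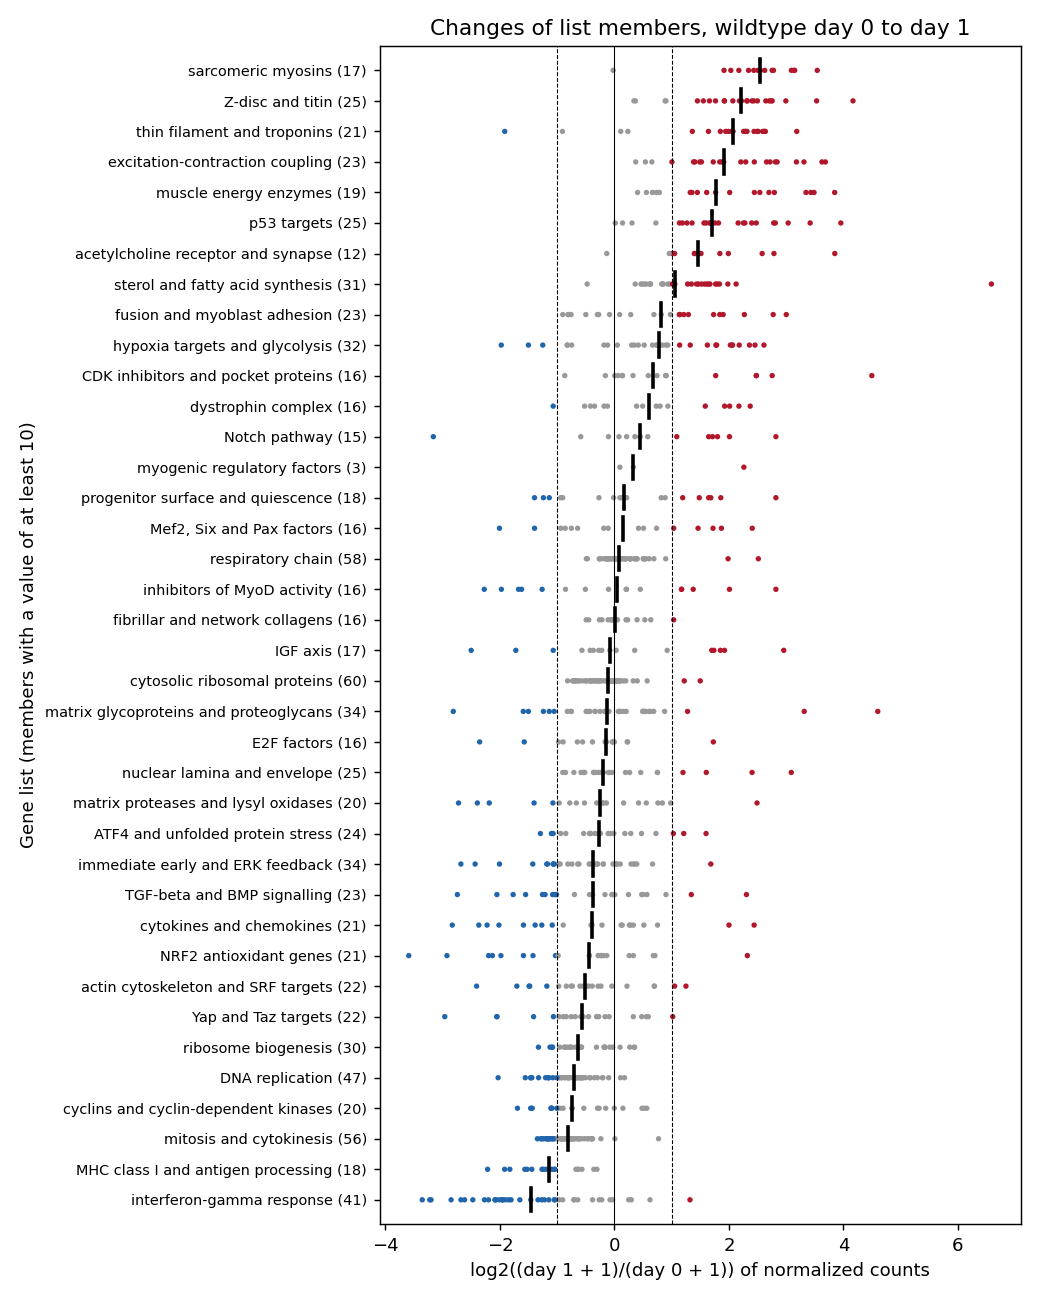
Each line is a gene list, markers of other cell types left out, with the number of members that had a value of at least 10 in parentheses; points are members placed by log2((day 1 + 1)/(day 0 + 1)), red at or above 1, blue at or below -1, grey between, and black bars are medians. Medians run from 2.54 for sarcomeric myosins to -1.46 for the interferon-gamma response, against -0.01 over all 13432 genes.

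Membrane systems of muscle rose together with the sarcomere. Of 25 excitation-contraction coupling genes, 23 passed, 20 were higher and 0 lower, with a median of 1.91. The calcium release channel Ryr1 went from 892 to 5634 and the calcium pump Atp2a1 from 1660 to 10934, while the broadly expressed pump Atp2a2 was at 11088 and 14348. Casq2, the cardiac calsequestrin, rose from 1532 to 10765, and Casq1, the skeletal one, from 14.8 to 194. Over the tables that hold the same day 0 libraries, and after scaling, Casq1 ranged from 11.7 to 20.8. Of 13 acetylcholine receptor and synapse genes 12 passed and 10 were higher, with a median of 1.46. The α subunit (Chrna1) rose from 8167 to 21589. The fetal γ subunit (Chrng) rose from 791 to 4737, whereas the adult ε subunit (Chrne) was at 0.447 and 0.545. Among 22 muscle energy enzymes 19 passed and 14 were higher, with a median of 1.77. Muscle creatine kinase (Ckm) rose from 173 to 1877 and its brain form (Ckb) from 544 to 3779. Glycogen phosphorylase (Pygm) rose from 369 to 5323. The dystrophin complex moved less, with 5 of 16 higher, 1 lower and a median of 0.61. Dag1, which links the complex to the matrix, rose from 6512 to 19563 and Sgca from 591 to 2386, and Dmd itself was at 53.5 and 39.8.

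Most inhibitors, cyclins, kinases and mitosis genes of the cell cycle stayed within 2-fold. Those that passed the threshold were higher among the inhibitors and lower among cyclins, kinases and mitosis genes. The p21 gene Cdkn1a went from 7624 to 42456 and p57 (Cdkn1c) from 127 to 2882. Rb1, the retinoblastoma gene, rose from 1766 to 9855. In contrast, p27 (Cdkn1b) was at 874 and 1094, Cdkn2a at 3873 and 4265, and Rbl1, which encodes p107, at 2057 and 1126. Of the 16 inhibitors and pocket proteins 5 were higher, among them Btg2, from 513 to 3469, 0 were lower, and the median was 0.67. Cyclin D1 (Ccnd1) fell from 9917 to 3063 and its partner Cdk6 from 4444 to 1610. Cyclin D3 (Ccnd3), the D cyclin of differentiating muscle, was at 5820 and 8612. In all, 20 of 21 cyclins and kinases passed, 7 were lower and 0 higher, with a median of -0.74. Of the transcription factors for the cycle, Mybl2 fell from 986 to 192 and Foxm1 from 3542 to 1187, E2f2 rose from 565 to 1872, and E2f1 and E2f8 were at 1274 and 1239 and at 2439 and 2433.

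DNA replication genes were lower in 12 of 47 and higher in 0, with a median log2 change of -0.71. Thymidine kinase (Tk1) fell from 1873 to 457, Cdc6, which loads the replicative helicase, from 906 to 328, and Top2a from 13956 to 6306. The helicase subunits Mcm2 to Mcm7 stayed within 2-fold, for example Mcm5 at 2207 and 1294. Mitosis genes were lower in 15 of 56 and higher in 0, with a median of -0.82. Mki67 fell from 10348 to 4290, Plk1 from 2965 to 1287, and the cytokinesis scaffold Anln from 7962 to 3362. Ckap2 stood out in the other direction, at 2125 and 3625, without reaching 2-fold. Transcripts of dividing cells were still measured at day 1, with Mki67 at 451 per kilobase of transcript.

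Targets of p53 were nearly as uniform as the sarcomere. Of 25 genes, 21 were higher and 0 lower, and the median log2 change was 1.71. Cyclin G1 (Ccng1) rose from 6550 to 45065 and Mdm2, which degrades p53, from 2626 to 12525. Trp53inp1 rose 15.5-fold, from 708 to 10989. Eda2r and Fas, which encode receptors of the TNF receptor family, rose from 890 to 7304 and from 177 to 860, and Pmaip1 and Bbc3, which promote apoptosis, from 933 to 6551 and from 106 to 359. Bax rose from 2194 to 4993. Trp53 RNA itself was at 3190 and 3519, and Tigar at 205 and 207. Cdkn1a and Ddit4 in this list respond to other factors too, and Cdkn1a was counted in the inhibitor list as well.

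Interferon-γ response genes had the lowest median of the lists other than cell type markers, -1.46. Of 43 genes 41 passed, 27 were lower and 1 higher. The guanylate-binding proteins of cell-autonomous immunity fell steeply, Gbp2 from 16162 to 2518 and Gbp4 from 17151 to 2372. The immunity-related GTPases did likewise, Iigp1 from 48335 to 11983, Igtp from 20343 to 5430, and Irgm1 from 14538 to 3464. Family members such as Tgtp1 and Tgtp2 are near-identical, and their split is uncertain. Chemokines Cxcl10 and Cxcl9 fell from 1917 to 186 and from 1288 to 139. Socs1 and Socs3, feedback inhibitors of cytokine signalling, fell from 971 to 103 and from 766 to 317. The transcription factor Irf1 fell from 6077 to 2206. The receptor genes Ifngr1, at 488 and 374, and Ifngr2, at 626 and 962, stayed within 2-fold. Not every member fell. Ifit1 rose from 172 to 430, and Ifit3, Isg15, Rsad2 and Usp18 stayed within 2-fold, Isg15 at 403 and 494. Irf9, at 1092 and 560, and Oasl2, at 1936 and 1034, were just short of the threshold here and passed it with values from other tables. The day 1 values of this group depended on the table they were read from. Over 7 tables that hold the same day 1 libraries, and after scaling, Gbp2 ranged from 1552 to 2518 and Gbp4 from 1103 to 2372. Iigp1 ranged from 7078 to 11983 and Cxcl9 from 31.4 to 139. The value given here was the highest each time.

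Antigen presentation followed with smaller steps. Of 20 genes 18 were in the table and passed, 12 were lower, 0 higher, and the median was -1.14. The immunoproteasome subunits Psmb8, Psmb9 and Psmb10 fell from 5978 to 2019, from 3272 to 1201 and from 3544 to 762. The peptide transporter Tap1 fell from 7945 to 3847. Class I heavy chains H2-K1, at 26503 and 17871, and H2-D1, at 29774 and 19265, and their light chain B2m, at 36178 and 28179, stayed within 2-fold. Reads of class I genes are hard to assign, since the genes are alike and differ between strains.

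Growth factor signalling genes changed unevenly. Of 34 immediate early and ERK feedback genes 9 were lower and 1 higher, with a median of -0.38. Myc fell from 1842 to 286 and the ERK phosphatase Dusp5 from 305 to 55.6. Etv4 and Egr2 fell from 567 to 140 and from 544 to 202. Fos, Jun and Egr1 stayed within 2-fold, Egr1 with values of 4685 and 5728, and the feedback inhibitor Spry1 rose from 193 to 622. In the insulin-like growth factor axis 17 of 18 passed, 5 were higher and 3 lower, with a median of -0.08. Igf2, an autocrine factor of myoblasts, rose from 14392 to 47991 and its clearance receptor Igf2r from 2523 to 9106. Binding proteins diverged, with Igfbp5 rising from 1810 to 6867 and Igfbp3 from 177 to 1384, while Igfbp4 fell from 1357 to 239 and Igfbp6 from 715 to 216. Irs2 fell from 223 to 106, and the receptor Igf1r was at 2546 and 2106.

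Of 16 Notch genes 15 passed, 6 were higher and 1 lower, with a median of 0.45. The ligand Dll1 rose from 340 to 1118, the receptors Notch1 and Notch3 from 3453 to 7345 and from 1507 to 4719, and the target Nrarp from 19.8 to 71.5. The classical targets Hes1, at 646 and 749, and Hey1, at 83.5 and 115, stayed within 2-fold, and Lfng, which modifies Notch receptors, fell from 346 to 37.7. In the TGF-β and BMP list 23 of 24 passed, 9 were lower and 2 higher, with a median of -0.38. The BMP antagonist Grem1 fell from 522 to 152, and Smad6, which inhibits BMP signalling, from 378 to 90.2. Bmp4 fell from 188 to 63.5. Tgfb3 was an exception, rising from 1330 to 6581.

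Sterol and fatty acid synthesis genes were higher in 17 of 31 and lower in 0, with a median of 1.05. Along the cholesterol pathway, Hmgcs1 rose from 1858 to 5325, Idi1 from 1437 to 6274, Fdft1 from 1242 to 3885, Lss from 499 to 1529, and Cyp51 from 1409 to 5564. The desaturase Scd2 rose from 9447 to 25505. Fasn, at 5301 and 7630, and Acaca, at 1788 and 1285, stayed within 2-fold. Tm7sf2, a sterol reductase, went from 1.69 to 257, the steepest rise among named genes with a value of at least 100. Its span on chr19:6062821-6067850 of GRCm38 overlaps that of Vps51, which was at 376 and 369, so the count of Tm7sf2 is uncertain.

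Matrix genes gave no shared direction. Of 18 collagens 16 passed, 1 was higher, 0 lower, and the median was 0.01. Col1a1 went from 4312 to 8840, 2.05-fold, and Col1a2 was at 31902 and 36712 and Col3a1 at 22586 and 23267. Among 34 of 36 matrix glycoproteins that passed, 3 were higher and 6 lower, with a median of -0.13, and single members moved far. Osteopontin (Spp1) fell from 113791 to 16156, the largest loss in normalized counts of any named gene, and thrombospondin-1 (Thbs1) from 59227 to 19637. Tenascin-C (Tnc) fell from 6150 to 2167. Postn rose from 46.9 to 476 and Mfap4 from 3.60 to 111, with 2.15 to 5.38 for the same day 0 libraries over other tables. The protease inhibitors Timp1 and Timp3 fell from 10304 to 2261 and from 13490 to 2563, the urokinase receptor Plaur from 956 to 144, and Serpine2 rose from 955 to 5373. That list had 1 higher and 5 lower among the 20 of 25 that passed, with a median of -0.26.

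Cytoplasmic actins fell where muscle actins rose. Actb went from 90996 to 32611 and Actg1 from 121877 to 43325. Both have many processed copies in the genome, so their counts are uncertain. Zyxin (Zyx), a focal adhesion protein, fell from 30732 to 9425 and Tagln2 from 10832 to 2040. Vinculin (Vcl) and the mechanically regulated Tagln stayed within 2-fold, at 17194 and 14607 and at 6424 and 4701. Of 23 actin cytoskeleton and SRF genes 22 passed, 5 were lower and 2 higher, with a median of -0.52. Among Yap and Taz targets 5 of 22 were lower and 1 higher, with a median of -0.57. The higher one, Ptpn14, fell short of 2-fold (0.98) when the groups were scaled to equal sums. Ccn2 fell from 3832 to 922 and F3, tissue factor, from 521 to 65.9, whereas Ccn1 at 11893 and 6639 and Ankrd1 at 16967 and 11282 did not reach 2-fold. Over the tables, after scaling, Ccn2 ranged from 3832 to 4559 for the day 0 libraries and from 653 to 922 for day 1. Of 25 cytokine and chemokine genes 21 passed, 8 were lower and 2 higher, with a median of -0.39. Csf1, the macrophage growth factor, fell from 30156 to 6447 and Cxcl14 from 2686 to 376. Among progenitor surface genes 18 of 20 passed, 6 were higher and 3 lower, with a median of 0.17. Cd82 rose from 2449 to 8880 and Megf10 from 2676 to 6117, and the syndecans Sdc3 and Sdc4 fell from 3921 to 1781 and from 4411 to 1865.

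Metabolic genes divided by pathway. In the hypoxia and glycolysis list 12 of 32 were higher and 3 lower, with a median of 0.77. Aldoa rose from 16575 to 41502, Pdk1, a kinase that inhibits pyruvate dehydrogenase, from 208 to 1069, Bnip3 from 800 to 3260, and the lactate exporter Slc16a3 from 260 to 1431. Hk2 fell from 1730 to 726. Hif1a was at 4330 and 3983 and Pkm at 48781 and 50491. Gapdh was listed at 1479 and 6184, but it has many near-identical pseudogenes and its count is uncertain. The NRF2 antioxidant list was lower in 8 of 21 and higher in 1, with a median of -0.44. Nqo1, a quinone reductase, fell from 2615 to 216, Gclm from 1220 to 265 and G6pdx from 4180 to 1056, and Hmox1 at 1415 and 2311 and Nfe2l2 itself at 2850 and 2413 stayed within 2-fold. Respiratory chain genes were level, with 2 of 58 higher, 0 lower and a median of 0.07. The exceptions were the muscle isoform Cox7a1, from 9.18 to 39.3, and the coactivator Ppargc1a, from 33.7 to 197.

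Ribosomal protein genes had a median of -0.11, with 2 of 60 higher, Rps13 and Rps29, and 0 lower. Both have many processed copies, so these values are uncertain. Ribosome biogenesis genes had a median of -0.63, and 4 of 30 were lower, a share close to the 10.3% of all genes above the minimum. Nucleolin (Ncl) fell from 21648 to 10186 and Dkc1 from 2041 to 813. In the ATF4 and unfolded protein list 3 of 24 were higher and 3 lower, with a median of -0.26. Both shares were close to the 12.5% and 10.3% of all genes above the minimum. The serine and one-carbon enzymes Phgdh and Shmt2 fell from 8546 to 3982 and from 3109 to 1268, and the chaperone Hspa5 was at 14703 and 11038.

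Nuclear envelope genes mostly held their level, with 4 of 25 higher, 0 lower and a median of -0.19. The share that was higher was near the 12.5% of all genes above the minimum. Emd was at 1888 and 1755, Lmna at 25610 and 19918, and Lmnb1 at 2145 and 1147. The higher genes encode muscle-enriched membrane proteins in part. Tmem38a, a cation channel, rose from 548 to 4673, Plpp7 from 118 to 628, Syne1, a nesprin, from 1213 to 3690, and Wfs1 from 708 to 1626.

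The 12 steepest rises among named genes with a value of at least 100 lay between 26.0-fold and 152-fold. In order of log2 change with 1 added to each value, Tm7sf2 was followed by Samd12, from 3.27 to 174, and Padi2, a peptidylarginine deiminase, from 37.4 to 1505. Ltb4r2, a leukotriene B4 receptor, went from 6.55 to 282 but shares its place with Cideb and is uncertain, and the carboxylesterase Ces2e from 9.30 to 364. Celf5, Sec14l5, Fgfbp1, Sytl1, Dpysl5, Mfap4 and Nectin4 completed the set. Day 0 values of most of these genes were under 20, where the fitted fold is least certain. The steepest fall was that of the histone gene H2ac24, from 693 to 1.24. Histone genes of this cluster are near-identical in sequence, so the count is uncertain. Gsta1, a glutathione transferase, fell from 115 to 2.12, the prostaglandin transporter Slco2a1 from 454 to 21.3, and the guanylate-binding protein Gbp2b from 3091 to 161. Batf2, Il12rb1, Serpinb2, Nefl, Ptchd4, Prl2c3, AA467197 and Nqo1 made up the rest, each at least 12.1-fold lower. Some of these values also depended on the table. Over the tables that hold the same libraries, and after scaling, day 1 values ranged from 0.537 to 2.12 for Gsta1 and from 0.755 to 1.61 for H2ac24. They ranged from 20.2 to 45.3 for Serpinb2 and from 41.2 to 83.3 for Batf2. Day 0 values ranged from 0.358 to 1.69 for Tm7sf2, from 2.15 to 5.38 for Mfap4 and from 1.30 to 2.70 for Sec14l5. Those of Samd12 ranged from 2.31 to 3.62 and those of Fgfbp1 from 5.69 to 8.62. By normalized counts and among named genes, Myh3, Acta1, Ccng1, Cdkn1a, Igf2 and Myog gained most. Spp1, Actg1, Actb, Thbs1, Iigp1 and Vim lost most, of which Vim, at 66273 and 38944, did not reach 2-fold.

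The same lists were read in 3 other comparisons, each normalized in its own table and with no test of a difference. The day 1 to day 2 table shares the wildtype day 1 libraries. Over the sarcomeric myosins that passed the minimum here, the median log2 change was 1.56 in EMD -/y cells and 1.67 in cells labelled +EMD from day 0 to day 1, beside 2.54 in wildtype. The lines differed at the start. Myh3 was at 21272 and 72882 in EMD -/y cells and at 2144 and 12657 in cells labelled +EMD, beside 9832 and 67484 in wildtype. From day 1 to day 2 the median was 2.03 in wildtype, where Myh3 went from 64098 to 261928. Emd was at 0.845 and 0.457 in EMD -/y cells and at 0.268 and 0.376 in cells labelled +EMD, so the added emerin is not seen in the counts of this gene. By Western blot, the paper reports emerin protein in +EMD cells at a level similar to wildtype and none in EMD -/y cells. The p53 list had medians of 1.60 and 1.82 in those lines. In wildtype cells it was -0.85 from day 1 to day 2, with Ccng1 at 41860 and 23252 and Cdkn1a at 39577 and 69202. The interferon-γ list was at -1.46 and -1.39 in the other lines and at -0.15 from day 1 to day 2. Mitosis genes gave -0.59 in EMD -/y cells and 0.00 in cells labelled +EMD, beside -0.82 in wildtype. From day 1 to day 2 their median in wildtype was -4.30, and Mki67 went from 3977 to 74.6. Replication genes followed at -0.61, 0.22 and -1.78, and sterol genes at 1.40, 1.00 and -0.41. Pax7 was at 868 and 883 in EMD -/y cells and at 2224 and 1976 in cells labelled +EMD, beside the 361 and 137 of wildtype. H2ac24 was at 684 and 15.5 in EMD -/y cells and at 514 and 585 in cells labelled +EMD. Gbp2b was at 0.161 and 0.184 in EMD -/y cells.

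**Figure D3:**
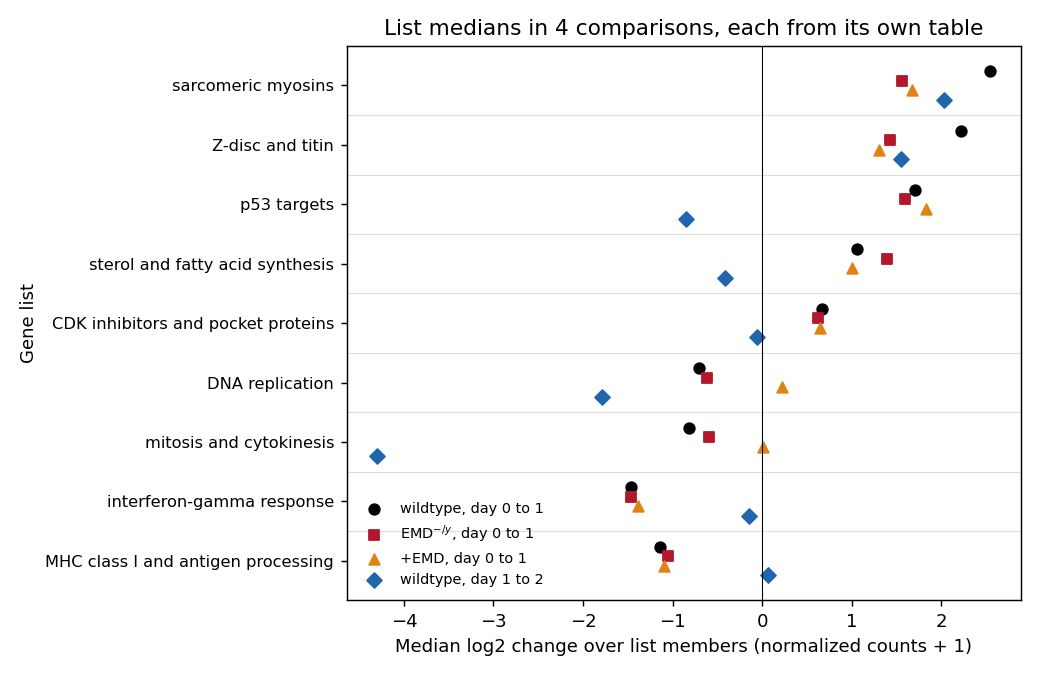
Each marker is the median log2 change over list members that passed the minimum in the wildtype day 0 to day 1 table, on the horizontal axis, for 9 lists and 4 comparisons read from separately normalized tables. The mitosis list stands at -0.82 in wildtype from day 0 to 1 and at -4.30 from day 1 to 2, and the p53 list at 1.71 and -0.85.

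Promoters of genes that moved together were searched on both strands of 300-base RefSeq sequences (GRCm38.p6), from 250 bases before to 50 after the start. The motifs were the E-box CAGCTG, the MEF2 site YTAWWWWTAR, the CArG box and the cell cycle homology region core TTTGAA. The others were the NF-Y motif CCAAT, the E2F motif GGCGGGAA and the STAT motif TTCNNNGAA. In the MEF2 site Y is C or T, W is A or T, and R is A or G. Matches of different motifs may overlap, and sequences 1 letter off a motif were not counted. A match is a run of letters and was not tested as a binding site. Shares were not counted for list members that stayed within 2-fold. Whether a share is particular to the members that moved was not tested. Of 98 higher genes in 6 muscle lists, from myosins to energy enzymes, 72 had a promoter. The E-box CAGCTG lay in 39.6% of their 91 promoters and in 16.3% of all 32851 promoters, and the MEF2 site in 16.5% and 3.19%. Among 14 promoters of 15 lower mitosis genes, 12 held TTTGAA, or 85.7% beside 17.9% of all, and 10 held CCAAT, or 71.4% beside 37.4%. TTTGAA lay in 7 of 22 promoters of lower interferon-γ genes, 31.8%, and in 1 of 12 of lower replication genes, 8.33%, that of Top2a. The STAT motif TTCNNNGAA lay in 8 of 22 promoters of lower interferon-γ genes, 36.4% beside 8.30%. The E2F motif GGCGGGAA lay in 3 of 12 promoters of lower replication genes, 25% beside 2.19%. The CArG box lay in 6.59% of the muscle promoters and in 2 of 4 promoters of lower actin cytoskeleton genes, beside 1.63% of all. CCAAT lay in 13 of 15 promoters of higher sterol genes, 86.7%. The higher p53 targets held CAGCTG in 16.7% of 24 promoters, close to the share of all. The promoters below show these letters in genes whose values are given above. Capitals mark matches on either strand, and only of the motifs chosen for that gene. The chosen motifs are CAGCTG in Chrna1 and Chrng, and the CArG box in Actc1, Acta1 and Actg1. In Mki67 and Top2a they are TTTGAA and CCAAT, and in Irf1 and Socs3 TTCNNNGAA. Matches of other motifs stay in lower case, such as CAGCTG in Acta1 and Irf1 and CCAAT in Actg1 and Irf1.
Chrna1, chr2:73580289-73580588, minus strand: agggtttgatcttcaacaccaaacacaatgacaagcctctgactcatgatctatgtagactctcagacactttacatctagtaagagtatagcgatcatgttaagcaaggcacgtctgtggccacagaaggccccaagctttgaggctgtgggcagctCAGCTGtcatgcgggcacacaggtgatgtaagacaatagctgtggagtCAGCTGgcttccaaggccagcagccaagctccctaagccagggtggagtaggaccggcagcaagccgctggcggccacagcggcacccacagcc
Chrng, chr1:87205561-87205860, plus strand: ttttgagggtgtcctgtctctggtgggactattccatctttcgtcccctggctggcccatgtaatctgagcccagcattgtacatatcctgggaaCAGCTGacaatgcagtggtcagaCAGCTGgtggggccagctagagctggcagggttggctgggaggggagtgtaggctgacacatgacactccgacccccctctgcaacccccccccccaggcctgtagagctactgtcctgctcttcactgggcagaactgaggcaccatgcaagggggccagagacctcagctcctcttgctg
Actc1, chr2:114052826-114053125, minus strand: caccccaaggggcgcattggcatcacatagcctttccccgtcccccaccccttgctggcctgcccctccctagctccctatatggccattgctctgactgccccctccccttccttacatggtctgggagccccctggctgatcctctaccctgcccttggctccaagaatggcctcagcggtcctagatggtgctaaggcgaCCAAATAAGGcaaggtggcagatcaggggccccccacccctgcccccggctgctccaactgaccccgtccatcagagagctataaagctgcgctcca
Acta1, chr8:123894726-123895025, minus strand: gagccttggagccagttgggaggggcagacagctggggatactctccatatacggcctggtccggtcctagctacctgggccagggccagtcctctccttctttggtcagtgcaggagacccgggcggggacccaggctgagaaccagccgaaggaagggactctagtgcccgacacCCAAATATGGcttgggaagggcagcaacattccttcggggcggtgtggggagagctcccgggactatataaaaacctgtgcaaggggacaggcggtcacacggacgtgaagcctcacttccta
Actg1, chr11:120348446-120348745, minus strand: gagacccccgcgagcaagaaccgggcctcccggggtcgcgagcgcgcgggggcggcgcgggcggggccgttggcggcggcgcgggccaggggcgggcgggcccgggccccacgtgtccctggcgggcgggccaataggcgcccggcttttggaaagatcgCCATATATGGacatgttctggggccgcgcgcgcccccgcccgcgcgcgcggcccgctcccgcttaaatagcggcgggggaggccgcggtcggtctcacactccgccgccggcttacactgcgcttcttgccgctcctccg
Mki67, chr7:135716330-135716629, minus strand: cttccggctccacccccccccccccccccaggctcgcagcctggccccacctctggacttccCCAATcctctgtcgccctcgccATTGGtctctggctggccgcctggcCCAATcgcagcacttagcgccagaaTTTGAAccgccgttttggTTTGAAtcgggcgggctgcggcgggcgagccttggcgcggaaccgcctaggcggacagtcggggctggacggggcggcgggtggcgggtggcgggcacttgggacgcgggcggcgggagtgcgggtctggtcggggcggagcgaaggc
Top2a, chr11:99024140-99024439, minus strand: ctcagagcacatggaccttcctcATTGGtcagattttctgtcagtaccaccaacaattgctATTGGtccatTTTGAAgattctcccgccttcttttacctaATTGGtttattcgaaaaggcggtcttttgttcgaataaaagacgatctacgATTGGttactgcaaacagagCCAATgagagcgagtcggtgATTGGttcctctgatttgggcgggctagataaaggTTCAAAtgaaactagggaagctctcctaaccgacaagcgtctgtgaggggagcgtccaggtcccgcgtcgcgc
Irf1, chr11:53769764-53770063, plus strand: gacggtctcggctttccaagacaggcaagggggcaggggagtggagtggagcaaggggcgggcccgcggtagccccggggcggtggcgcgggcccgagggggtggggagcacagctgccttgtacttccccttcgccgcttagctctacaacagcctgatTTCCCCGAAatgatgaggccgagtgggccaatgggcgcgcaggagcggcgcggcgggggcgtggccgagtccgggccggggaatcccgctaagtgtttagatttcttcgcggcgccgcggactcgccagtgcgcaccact
Socs3, chr11:117969317-117969616, minus strand: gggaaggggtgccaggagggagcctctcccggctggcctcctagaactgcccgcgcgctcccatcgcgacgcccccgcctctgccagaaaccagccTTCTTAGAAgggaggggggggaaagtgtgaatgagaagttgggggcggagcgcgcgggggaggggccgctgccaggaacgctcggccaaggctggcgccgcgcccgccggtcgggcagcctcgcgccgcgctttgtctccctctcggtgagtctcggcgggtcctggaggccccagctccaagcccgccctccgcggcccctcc
The promoters of Chrna1 and Chrng hold 2 copies of CAGCTG each. Those of the muscle actins Actc1 and Acta1, which rose, and of the cytoplasmic actin Actg1, which fell, hold a CArG box each, the motif of serum response factor. Mki67 holds 2 copies of TTTGAA and 3 of CCAAT. Top2a holds 2 of the first and 6 of the other. Irf1 and Socs3 hold 1 copy of TTCNNNGAA each. Irf1 has a second listed start, whose promoter holds none. Within the window Myog and Myh3 hold neither CAGCTG nor a full match of the MEF2 site as searched. Each holds a run 1 letter off that site, ctatatttat in Myog and ctatatatac in Myh3, which was not counted. Gbp2 and Socs1 hold no TTCNNNGAA, Cdc6 and Tk1 neither GGCGGGAA nor CCAAT, and Zyx and Tagln2 no CArG box. Mcm10 holds CCAAT but no GGCGGGAA.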

How the data were processed

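Poly-A RNA was sequenced from 3 labelled replicates per group. Reads had been filtered with SOAPnuke and mapped to mm10 with HISAT2, and the authors' pipeline used DESeq2, per the submitters' notes. The signal values deposited are normalized read counts, 1 per gene and group, with no values per sample. The authors' fold change, p-value and q-value columns were not used. Gene IDs were named from RefSeq (GRCm38.p6), which matched 15892 of 17452, and 1539 others are predicted genes. The mean of the 2 columns lay on whole-read steps for 100% of 1472 low genes, within 1e-06.

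A pseudocount of 1, a minimum of 10 for the higher value and a 2-fold threshold were used, with no test. The members and 45 gene lists were chosen with earlier results of these data known. Named genes are list members, the 12 steepest rises and falls with a value of at least 100, and the 6 largest gains and losses, without predicted genes and Gm or Rik symbols. Alternatives were pseudocounts of 0 and 5, no minimum or one of 50, 1.5-fold and 4-fold thresholds, scaling to equal sums, centring on the median, values from other tables, and leaving out predicted genes. Tables were scaled to each other by the median ratio over genes with values of at least 100. The call was run on simulated group means with counting error only and planted changes larger than the threshold. That checks the code and not how calls behave on the fitted columns. Scripts ran in Python 3.11.15 with scipy 1.17.1, pandas 2.3.3 and numpy 2.4.6, and figures used matplotlib 3.10.9. Values of some list members are not reported here.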

Additional observations from a re-analysis of the deposited data

How the results depend on the processing

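The counts of 1677 higher and 1384 lower genes stayed within 1.5 times under every alternative other than the fold threshold, with 1282 to 1913 higher and 1069 to 1558 lower. They were 2869 and 2813 at 1.5-fold and 580 and 356 at 4-fold, as the threshold itself sets. Scaling to equal sums gave 1598 and 1479, or 51.9% higher among called genes beside 54.8%, and moved the median of all genes to -0.05. No called gene turned to the opposite direction under any alternative. Values taken as medians over all tables, an alternative chosen after seeing the data, gave 1733 and 1465, with 1676 and 1383 shared. Over the 978 named genes and all alternatives other than the fold threshold, 19 values dropped below 2-fold and 23 rose past it. With equal sums, Cacna2d1 (0.97), Chrnb1 (0.98), Hsd17b7 (0.98), Ptpn14 (0.98), Cd68, Ddit3, Mef2d and Col1a1 fell just short of 2-fold. With a pseudocount of 5, Cd68 (0.87), Erg (0.85), Kdr (-0.93), Cnn1 (0.90), Ache, Mfap2, Myoz1 and Tgfbi did. Under all alternatives other than the fold threshold, counts of list members moved by over 1.5 times in 23 cases and stayed within that in 787. Of the 23, 14 moved with a minimum of 50, 4 with a pseudocount of 5, 3 with equal sums and 2 with no minimum. Another 36 moved at 1.5-fold and 52 at 4-fold. Medians crossed 2-fold only for the macrophage, Schwann and cardiac marker lists, when the minimum was changed. No paired analysis was possible because the columns carry no replicates, and no replicate could be left out.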

Other observations

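Predicted genes took part in the change. Of 1539 genes without a name that the sequencing provider predicted, 841 passed the minimum of 10. Of these 841, 168 were higher and 197 lower at day 1. Over all 13432 genes that passed, 12.5% were higher and 10.3% lower. The highest value in the table belongs to one of them, at 426323 on day 0 and 596586 on day 1, with a listed length of 16089 bases. Another stood at 46737 and 71173. What these 2 transcripts are is not given in the sources used here.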
